A study of Mus musculus with 43 samples.

Results

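Rsad2 and Cmpk2 are neighbouring interferon-stimulated genes on mouse chromosome 12. They were chosen by name, with their response to interferon in these samples already known, and they are 2 of the 19752 genes measured. Each had 1 probe set, 10399710 for Rsad2 (RefSeq NM_021384.4) and 10395039 for Cmpk2 (RefSeq NM_020557.4), so no choice between probe sets was needed. Because the pair was picked with its interferon change in view, its values are given as a description with standard errors and without p-values.

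Rsad2 encodes viperin, an enzyme of the radical S-adenosylmethionine family that holds an iron-sulfur cluster and sits on the endoplasmic reticulum and lipid droplets. It converts cytidine triphosphate into a 3'-deoxy-3',4'-didehydro form that acts as a chain terminator for some viral RNA polymerases. Cmpk2 encodes a mitochondrial kinase that phosphorylates the monophosphates of cytidine and uridine, and so lies on the route to the nucleotide that viperin consumes. Type I interferon switches on both genes through its receptor, the JAK1 and TYK2 kinases, and STAT proteins that bind with Irf9 to the interferon-stimulated response element (ISRE).

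The arrays held RNA from immune cells sorted by flow cytometry from male C57BL/6 mice aged 6 weeks. The interferon groups came from mice injected under the skin with 10000 U of interferon alpha and taken 2 h later, and the labels do not say whether the mice of the baseline groups were injected with anything. There were 17 interferon and 26 baseline arrays in 9 cell types. From spleen came T cells sorted as CD4+, CD8+, gamma-delta or regulatory (CD25+ CD4+), NK and NKT cells sorted by NK1.1, CD11c+ FLT3+ dendritic cells and Ly6G+ neutrophils, and from the peritoneal cavity came F4/80+ macrophages. Each cell type had 2 interferon and 3 baseline arrays, except macrophages with 1 and 3 and neutrophils with 2 and 2.

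Some labels limited what could be compared. CD8+ baseline arrays 1 and 2 have blood as their source and spleen in their titles. Macrophage baseline arrays 1 and 2 carry a preparation that names spleen. The titles were followed. No label says whether arrays came from separate animals, so p-values cover only how far these arrays spread. The preparation of baseline arrays 1 and 2 is worded differently from that of every other array, so part of any interferon difference cannot be told apart from that wording. Markers matched the labels: each of the 9 marker lists had its highest mean level in its own cell type. The gamma-delta list, however, had only 2 of 7 genes measured. Macrophage markers averaged 7.83 to 8.61 on the NKT interferon arrays, against 6.96 to 8.05 on the NKT baseline arrays. Their part in the NKT values was not tested. Replicate arrays correlated at 0.951 to 0.997 over all genes. In sorted bulk RNA, fewer cells of a type and less RNA per cell cannot be told apart.

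The 2 genes lie head to head, with RefSeq start sites 12763 bp apart and no other gene of the RefSeq table between them. Since they moved together, the 250 bases before each start site (RefSeq, GRCm38.p6) were searched for the ISRE (GAAA and GAAA with any 2 bases between), the STAT element (TTC and GAA with any 3 bases between) and the core promoter motif TATAAA, on both strands. The sequences below run 5′ to 3′ on the strand of each gene, end at the base before the start site, and show the ISRE match in capitals.
Rsad2 (chr12:26456453-26456702, minus strand): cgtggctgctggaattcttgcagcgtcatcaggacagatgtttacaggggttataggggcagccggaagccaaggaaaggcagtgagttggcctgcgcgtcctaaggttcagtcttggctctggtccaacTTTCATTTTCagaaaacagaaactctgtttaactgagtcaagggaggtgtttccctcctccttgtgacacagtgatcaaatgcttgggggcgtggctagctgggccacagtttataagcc
Cmpk2 (chr12:26468965-26469214, plus strand): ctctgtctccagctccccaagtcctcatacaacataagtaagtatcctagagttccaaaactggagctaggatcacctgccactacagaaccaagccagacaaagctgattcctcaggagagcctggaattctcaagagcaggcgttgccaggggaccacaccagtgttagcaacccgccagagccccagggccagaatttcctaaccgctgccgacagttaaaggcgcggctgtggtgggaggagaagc

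The Rsad2 window held 1 ISRE match, 120 to 111 bases before the start site, which reads as the motif on the strand opposite to the gene. A second stretch, 108 to 99 bases before the start, matched with 1 mismatch, and TATAAA was found on the opposite strand 10 to 5 bases before the start. The Cmpk2 window held no match to any of the 3 motifs, nor to the ISRE with 1 mismatch. Among all 32851 promoter windows of this length, 2.98% held the ISRE, 7.02% the STAT element and 12.4% TATAAA. With 1 mismatch allowed, the ISRE was found in 31.4% of windows. These matches describe letters in 250 bases and show neither binding nor its absence.

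Rsad2 was higher on every interferon array than on every baseline array of the same cell type, in all 9 types, and the same was true of Cmpk2. Over all genes, 1.15% separated in this way in all 9 types. Averaged over the cell types with equal weight, the rise was 4.38 ± 0.0911 on the log2 scale for Rsad2 (SE), a 20.9-fold rise, and 3.81 ± 0.0881 for Cmpk2, a 14.03-fold rise. Both genes passed the call used here in all 9 cell types, a limma adjusted p below 0.05 and a change of at least 1 on the log2 scale. Of all genes, 0.456% passed it as raised in all 9 types. The share called raised was 1.26% for the average over types, with 0.0658% called lowered. Among T cells it was 0.901% (CD4+), 1.00% (CD8+), 1.11% (regulatory) and 1.53% (gamma-delta), and it was 1.25% in NK and 2.89% in NKT cells. Dendritic cells had 2.34%, macrophages 1.35% and neutrophils 2.43%. Since the pair was chosen on this contrast, nothing is read from those shares. The median change of all genes lay between -0.10 (NKT cells) and 0.08 (neutrophils), small beside these rises.

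**Figure D1:**
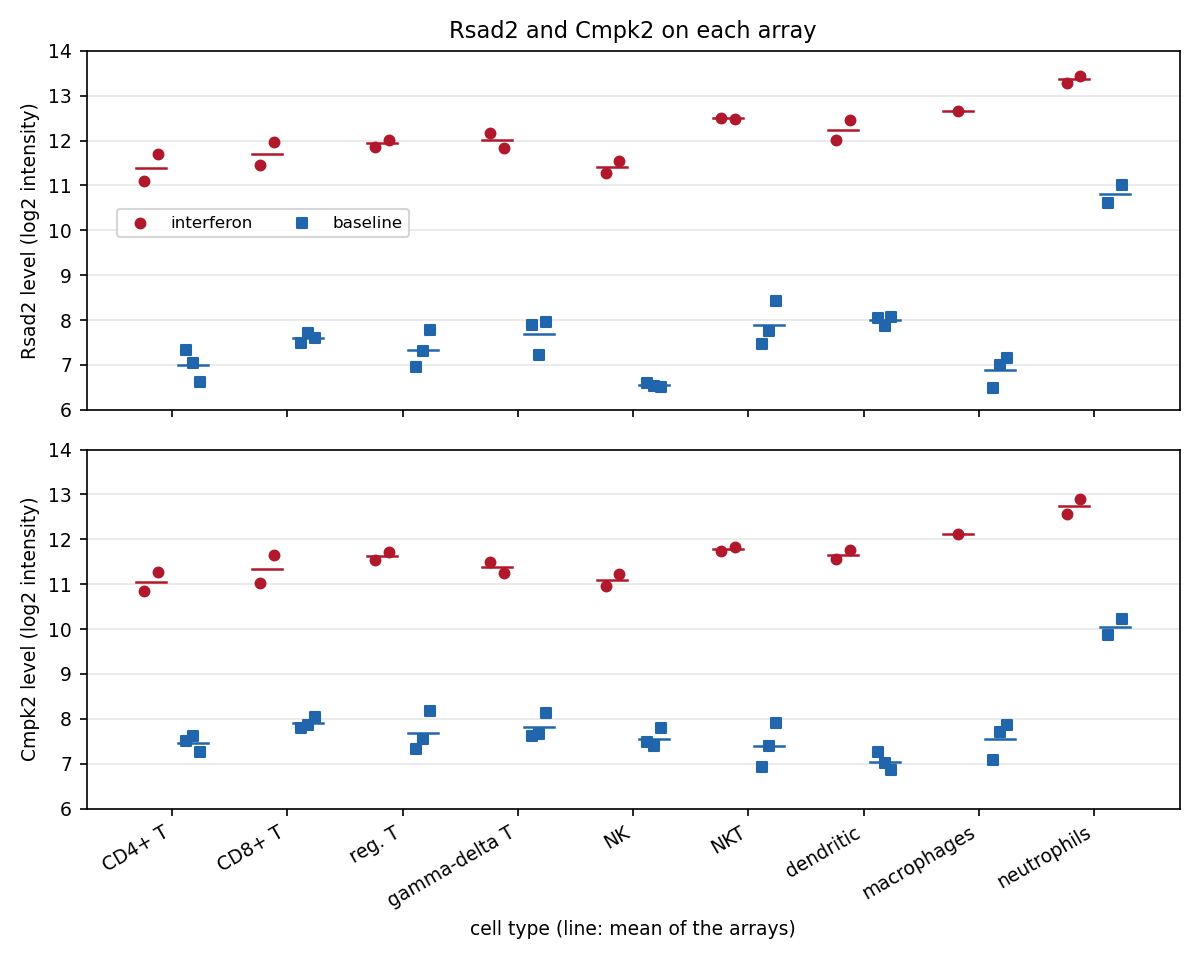
Level of Rsad2 (upper panel) and Cmpk2 (lower panel) on each of 43 arrays, as log2 intensity, with interferon arrays as red circles, baseline arrays as blue squares and lines at group means. Interferon arrays lie above baseline arrays in all 9 cell types, and the neutrophil baseline arrays stand above all other baseline arrays for both genes.

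The array values of Rsad2, as log2 intensity, were as follows among conventional and regulatory T cells. In CD4+ T cells it measured 11.10 and 11.70 after interferon, against 7.34, 7.03 and 6.62 at baseline. In CD8+ T cells it measured 11.45 and 11.96 after interferon, against 7.49, 7.72 and 7.60 at baseline. The CD8+ baseline arrays with the blood label, the first and second of these, lay on either side of the array labelled spleen. In regulatory T cells Rsad2 measured 11.85 and 12.02 after interferon, against 6.95, 7.30 and 7.77 at baseline. The rises in these 3 types were 4.40 ± 0.262, 4.10 ± 0.262 and 4.60 ± 0.262 on the log2 scale (SE), which is 21.1-fold in CD4+, 17.2-fold in CD8+ and 24.2-fold in regulatory T cells.

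Innate-like lymphocytes covered a wider baseline range. Gamma-delta T cells had Rsad2 at 12.16 and 11.84 after interferon, against 7.89, 7.23 and 7.96 at baseline, a 19.8-fold rise. NK cells had it at 11.27 and 11.55 after interferon, against 6.60, 6.54 and 6.50 at baseline. The NK baseline was the lowest of the 9 types and its 3 arrays the closest together, and the rise was 29.1-fold. These NK baseline intensities, 90.5 to 97.3, lay below the array medians of 105 to 125. How far background sets this baseline and the fold was not tested. NKT cells had Rsad2 at 12.50 and 12.49 after interferon, against 7.46, 7.74 and 8.43 at baseline, a 24.5-fold rise. Their baseline array 3 was the highest baseline value of Rsad2 outside neutrophils.

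The myeloid cells held both extremes of the Rsad2 response. Dendritic cells measured 12.001 and 12.46 after interferon, against 8.05, 7.86 and 8.08 at baseline, an 18.9-fold rise. The single macrophage interferon array measured 12.67, against 6.49, 7.01 and 7.16 on the baseline arrays. That 54.9-fold rise (5.78 ± 0.331 on the log2 scale) was the highest of the 9 types. Its error assumes that macrophages vary like the other groups. The macrophage baseline intensities of 90.1, 129 and 143 lay near the array medians of 105 to 125. No detection call was used, and how far background sets the size of this rise was not tested. Neutrophils measured 13.28 and 13.45 after interferon, against 10.62 and 11.01 at baseline. Their rise of 2.55 ± 0.287 on the log2 scale, 5.85-fold, was the smallest, although their interferon level was the highest.

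Cmpk2 followed a like course in T cells with smaller rises. CD4+ T cells had Cmpk2 at 10.84 and 11.26 after interferon, against 7.51, 7.62 and 7.26 at baseline, a 12.04-fold rise. CD8+ T cells had it at 11.02 and 11.64 after interferon, against 7.79, 7.87 and 8.03 at baseline, a 10.8-fold rise. Here the baseline arrays with the blood label were the lower ones. The gap between the 2 CD8+ interferon arrays was the widest for this gene after interferon, and the log2 rise of 3.43 ± 0.253 was 3.12 or 3.74 when either was left out. Regulatory T cells had Cmpk2 at 11.53 and 11.71 after interferon, against 7.34, 7.55 and 8.18 at baseline, a 15.2-fold rise.

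In gamma-delta T cells Cmpk2 measured 11.50 and 11.26 after interferon, against 7.63, 7.67 and 8.14 at baseline, an 11.9-fold rise. In NK cells it measured 10.97 and 11.22 after interferon, against 7.48, 7.39 and 7.81 at baseline, an 11.6-fold rise. For this gene NK cells were not the lowest at baseline, unlike for Rsad2. In NKT cells Cmpk2 measured 11.74 and 11.82 after interferon, against 6.91, 7.39 and 7.90 at baseline, a 20.8-fold rise.

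Dendritic cells, with the lowest Cmpk2 baseline of the 9 types, had 11.55 and 11.75 after interferon, against 7.27, 7.01 and 6.86 at baseline. Their rise of 4.61 ± 0.253 on the log2 scale, 24.3-fold, was the largest for this gene. B cell markers were lower after interferon: the 5 measured averaged 7.20 on both dendritic cell interferon arrays, against 7.67 to 8.25 on the baseline arrays. Their part in the Cmpk2 rise was not tested. Macrophages had 12.11 on the interferon array, against 7.07, 7.70 and 7.87 at baseline, a rise of 4.57 ± 0.320 or 23.7-fold. The difference between these 2 rises was smaller than the residual SD of Cmpk2, 0.295. Neutrophils had 12.56 and 12.91 after interferon, against 9.87 and 10.22 at baseline, and again showed the smallest rise, 2.69 ± 0.277 or 6.44-fold.

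**Figure D2:**
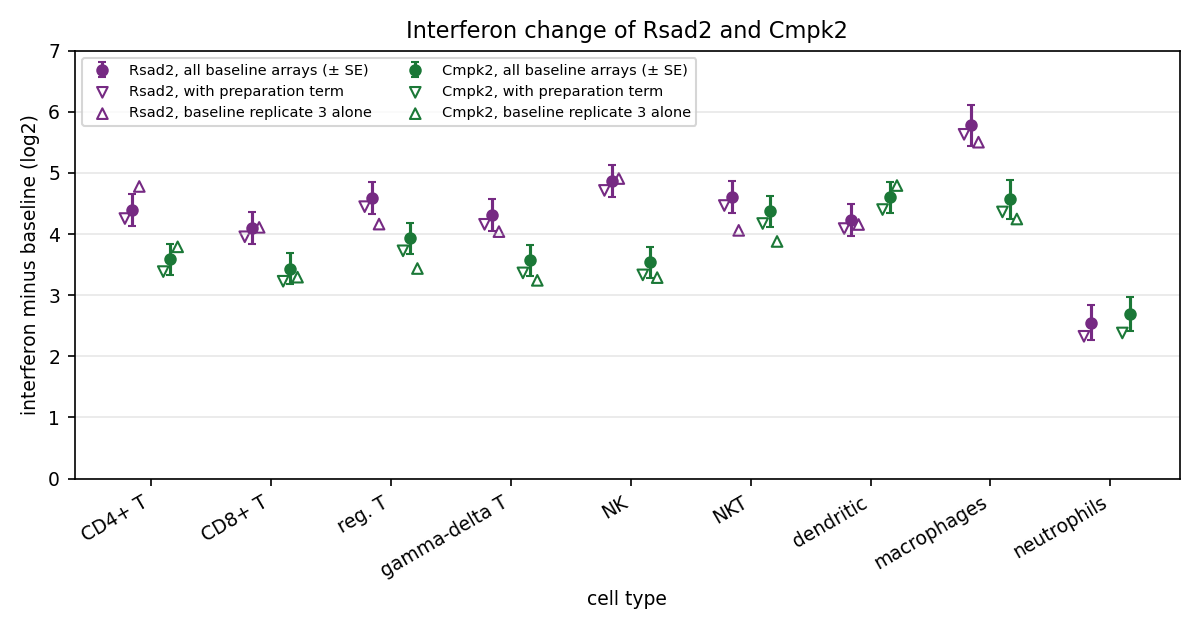
Interferon minus baseline on the log2 scale for Rsad2 (purple) and Cmpk2 (green) in 9 cell types, with filled points and bars for the estimate ± SE over all baseline arrays. Open triangles give the same change with a preparation term (pointing down) or against baseline replicate 3 alone (pointing up, none for neutrophils), and neutrophils are lowest for both genes under each setting that gives a value.

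Baseline array 3 shares its preparation wording with the interferon arrays of CD8+, regulatory and gamma-delta T cells and of dendritic cells, so it was also used alone. In NK, NKT and CD4+ T cells no baseline array shares the wording of the interferon arrays, macrophage baseline array 3 and interferon array carry none, and neutrophils have no baseline array 3. Baseline array 3 minus the mean of arrays 1 and 2 ran from -0.57 (CD4+ T cells) to 0.83 (NKT cells) for Rsad2 and was above 0 in 5 of 8 types. For Cmpk2 it ran from -0.30 (CD4+ T cells) to 0.75 (NKT cells) and was above 0 in 6 of 8. Measured against baseline array 3 alone, Rsad2 rose on average by 4.47 and Cmpk2 by 3.75 over the 8 types that have one. Over those 8 types, the Cmpk2 rise of NKT cells exceeded the mean of the other 7 by 0.15 ± 0.288 against array 3 alone, and by 0.49 ± 0.272 over all baseline arrays (SE).

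With neutrophils counted, the cell types spanned a narrower range of levels after interferon than at baseline. Rsad2 ranged over 1.97 log2 units after interferon, against 4.27 at baseline, and Cmpk2 over 1.68 after interferon, against 3.00 at baseline. Over the other 8 types, Rsad2 ranged over 1.27 after interferon, against 1.45 at baseline, and Cmpk2 over 1.06 after interferon, against 0.85 at baseline. After interferon, Rsad2 ran in the order neutrophils (13.36), macrophages (12.67), NKT cells (12.49), dendritic cells (12.23), gamma-delta T cells (12.001), regulatory T cells (11.94), CD8+ T cells (11.70), NK cells (11.41) and CD4+ T cells (11.40). Only neutrophils stood above their neighbour by more than the residual SD of 0.306, and the arrays of neighbouring types overlapped from dendritic cells downwards. At baseline the order was neutrophils (10.82), dendritic cells (7.99), NKT cells (7.88), gamma-delta T cells (7.69), CD8+ (7.60), regulatory (7.34) and CD4+ T cells (6.996), macrophages (6.89) and NK cells (6.55). Arrays of all neighbouring types overlapped there except neutrophils, which exceeded dendritic cells by 2.82.

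Cmpk2 after interferon was likewise highest in neutrophils (12.73) and macrophages (12.11) and lowest in NK cells (11.09) and CD4+ T cells (11.05). From NKT cells (11.78) down, each type lay within the residual SD of 0.295 of the next, and under quantile normalization only 5 of 9 types kept their place in this order. At baseline, neutrophils (10.04) exceeded CD8+ T cells (7.90), the next type, by 2.15. The other types lay between 7.05 in dendritic cells and 7.90, with overlapping arrays between neighbours in the order.

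The resting neutrophils were the one group whose baseline lay well apart for both genes. Their baseline Rsad2 of 10.62 and 11.01 stood above the 24 other baseline arrays, which held 6.49 to 8.43, and below all 15 interferon arrays of other types, which held 11.10 to 12.67. Their baseline Cmpk2 of 9.87 and 10.22 stood above the 6.86 to 8.18 of the other baseline arrays and below the 10.84 to 12.11 of the other interferon arrays. The neutrophil baseline exceeded the mean baseline of the other 8 types by 3.45 for Rsad2 and by 2.49 for Cmpk2 on the log2 scale, and over all genes the median of this difference was 0.11. Both neutrophil baseline arrays were above every other baseline array for 7.82% of all genes.

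Other antiviral genes shared this resting pattern in part. Of 21 antiviral effectors measured, 5 had both neutrophil baseline arrays above every other baseline array: Oas2, Oas3, Oasl1 and Oasl2 of the oligoadenylate synthetase family, and the ubiquitin ligase Trim25. The neutrophil baseline exceeded the mean of the other types by 3.56 for Oasl2, 2.86 for Oas2, 2.43 for Oas3, 1.76 for Oasl1 and 0.90 for Trim25. The GTPase gene Mx1 had a difference of -1.56. These genes were picked out after their values were seen.

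**Figure D3:**
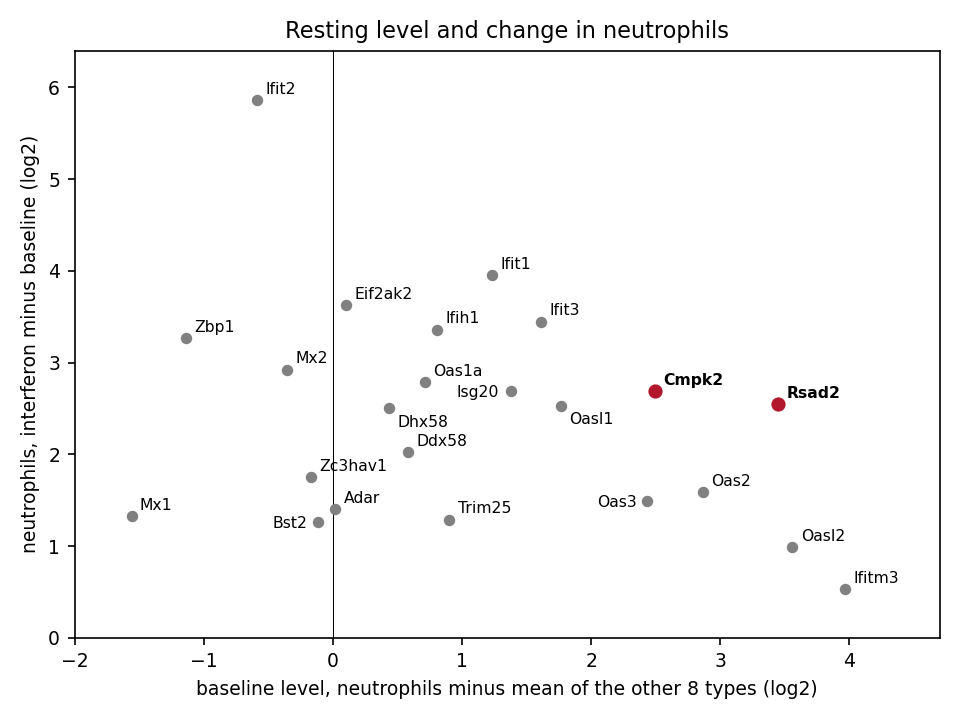
Each point is a gene, with the neutrophil baseline level minus the mean baseline of the other 8 cell types across and the interferon change in neutrophils up, both in log2. Rsad2 (3.45, 2.55) and Cmpk2 (2.49, 2.69) are red, the 21 antiviral effectors are grey, and both axes use the same neutrophil baseline arrays.

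Markers of B cells, dendritic cells and macrophages moved with the neutrophil baseline. The mean level of the 5 B cell markers measured of 6 was 6.56 to 6.67 on the neutrophil interferon arrays, against 8.62 to 9.36 on the neutrophil baseline arrays, and neutrophil markers themselves were at 12.78 to 12.89 after interferon, against 12.85 to 13.07 at baseline. Gamma-delta T cells carried more B cell marker signal, with means of 8.69 to 10.43 after interferon and 8.73 to 10.59 at baseline. Their baseline Rsad2 was 7.23 to 7.96 and their baseline Cmpk2 7.63 to 8.14, within the range of the other types. On neutrophil arrays the 6 dendritic cell markers averaged 6.74 to 6.84 after interferon, against 7.66 to 7.79 at baseline, and the 6 macrophage markers 7.43 to 7.73 after interferon, against 7.90 to 7.94 at baseline. The part of other cells in the neutrophil values was not tested.

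Set against the mean change of the other 8 types, the Rsad2 rise was larger in macrophages by 1.57 ± 0.344 and in NK cells by 0.54 ± 0.279, and it was smaller in neutrophils (-2.06 ± 0.302, SE). The Cmpk2 rise was larger in dendritic cells by 0.89 ± 0.27, in macrophages by 0.85 ± 0.333 and in NKT cells by 0.64 ± 0.27, and smaller in neutrophils (-1.26 ± 0.292). The remaining types lay within 0.32 of the other types for Rsad2 and within 0.43 for Cmpk2. Baseline array 3 alone gives no neutrophil value, so it was set against all baseline arrays over the 8 types that have both, a comparison chosen after seeing the data. The macrophage excess of Rsad2 over the other 7 types was then 1.19 against array 3 alone and 1.33 ± 0.346 over all baseline arrays. The dendritic cell excess of Cmpk2 was 1.197 against array 3 alone and 0.75 ± 0.272 over all. Without neutrophils among the others, the NK cell excess of Rsad2 was 0.28 ± 0.281 and the macrophage excess of Cmpk2 0.70 ± 0.334 over all baseline arrays.

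The pair did not change by the same amount everywhere. The Rsad2 change exceeded the Cmpk2 change by 1.33 in NK cells, 1.21 in macrophages, 0.81 in CD4+ T cells, 0.74 in gamma-delta T cells and 0.67 in CD8+ and in regulatory T cells. The excess was 0.24 in NKT cells. In dendritic cells the Cmpk2 change was the larger, with Rsad2 minus Cmpk2 at -0.37. In neutrophils the difference of -0.14 was smaller than the SE of either change, and it was 0.045 under quantile normalization. By size of change, NK cells ranked 2 for Rsad2 and 7 for Cmpk2, and dendritic cells 7 and 1. These places are not firm. NK cells exceeded the next type for Rsad2 by 0.25, below the residual SD of 0.306. Dendritic cells exceeded macrophages for Cmpk2 by 0.04. The residual SD of the Rsad2 level minus the Cmpk2 level was 0.179.

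**Figure D4:**
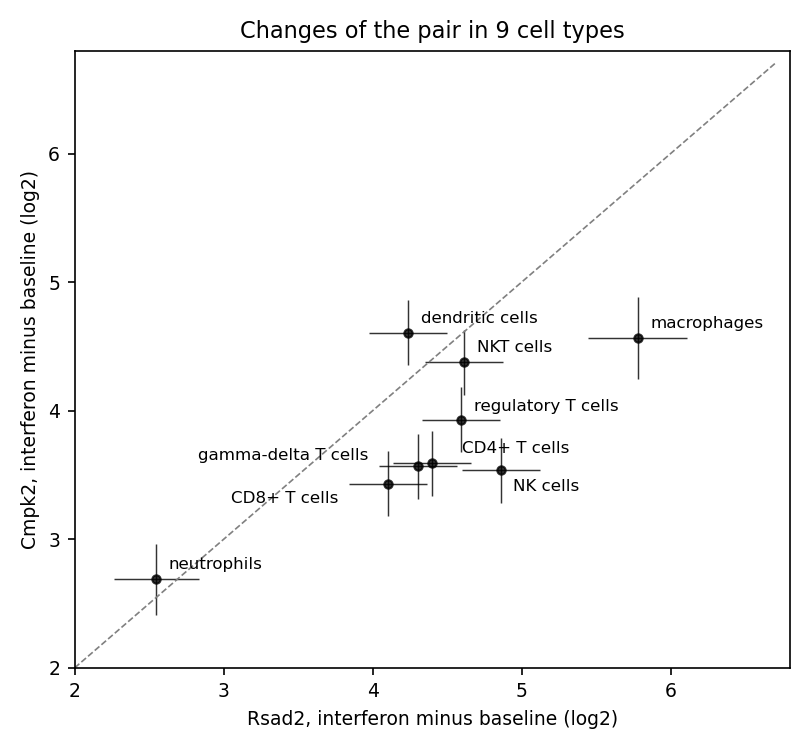
Interferon change of Rsad2 (across) against that of Cmpk2 (up) in 9 cell types, in log2, with bars of 1 SE and a dashed line of equal change. Dendritic cells lie above the line, neutrophils within 1 SE of it, and NK cells and macrophages farthest below it.

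Over all 43 arrays the levels of the 2 genes correlated at Pearson's r = 0.978, a value dominated by the treatment the arrays share. Within the 17 interferon arrays r was 0.975, and 0.952 over the 15 that are not neutrophils. Within the 26 baseline arrays r was 0.804, and 0.154 over the 24 that are not neutrophils, so the resting relation rested on the 2 neutrophil arrays. Deviations of single arrays from their group means, over the 42 arrays in groups of at least 2, correlated at 0.823. Here both genes are read from the same RNA on the same array. The changes correlated at 0.742 over the 9 cell types and at 0.452 over 8 without neutrophils.

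By Pearson's correlation of levels over the 18 group means, each gene was the other's closest match among all 19752 genes (r = 0.983), as it was over the 43 single arrays. Without macrophages Cmpk2 ranked 2 for Rsad2 and Rsad2 ranked 3 for Cmpk2. By Spearman's correlation Cmpk2 ranked 14 for Rsad2 and Rsad2 ranked 9 for Cmpk2. Next to Rsad2 came Rtp4 (0.980), a receptor transporter with antiviral activity, then Oasl1 (0.976), Oas3 (0.969), Ifit3b (0.963) and Oasl2 (0.961). Next to Cmpk2 came Rtp4 (0.981), Oasl1 (0.978), Trim25 (0.975), Rbm43 (0.969) and Oas3 (0.966). The 18 points share the interferon contrast, which gives most interferon-stimulated genes a high r. By Spearman's rank correlation, none of the 6 closest genes of Rsad2 and 2 of the 6 of Cmpk2 stayed in the closest 6. By baseline level alone over 9 types, Cmpk2 ranked 535 among the genes most like Rsad2, and Rsad2 ranked 461 among those most like Cmpk2.

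The pattern of the interferon change over the 9 types set the 2 genes apart more than their levels did. Among the 248 genes raised on average, the changes most like those of Rsad2 were of Ms4a4c (r = 0.940), a membrane protein of the MS4A family, Mx2 (0.936), Mx1 (0.931), Csf1 (0.879), which encodes a macrophage growth factor, BC023105 (0.817) and Ifit3 (0.804). Cmpk2 ranked 10 there. The changes most like those of Cmpk2 were of Csf1 (0.906), the PHD finger gene Phf11d (0.903), Ifi214 (0.896) of the PYHIN family, the class I gene H2-T24 (0.860), BC023105 (0.850) and Gm4951 (0.847), and Rsad2 ranked 18. Without macrophages, 3 of the 6 genes closest to Rsad2 and 4 of the 6 closest to Cmpk2 remained.

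By size of the average rise over all genes, Rsad2 ranked 3, between Cxcl10 (4.66 ± 0.105), a chemokine, and Ifit3 (4.32 ± 0.0908), which encodes a protein that binds viral RNA complexes. Cmpk2 ranked 9, between Ifit2 (3.85 ± 0.0936) and Usp18 (3.75 ± 0.0893). In single cell types other than neutrophils, Rsad2 ranked from 2 in CD4+ T cells to 8 in dendritic cells, and Cmpk2 from 5 in dendritic cells to 15 in NK cells. In neutrophils they ranked 90 and 80.

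The nearest measured genes were not called with the pair. The 4 nearest measured genes on each side on chromosome 12 had average changes between -0.30 and 0.15, and none was called on average by limma. On the Rsad2 side, Rnf144a, a ubiquitin ligase, had an average change of -0.30 ± 0.0566 (limma adjusted p = 6.83e-05), short of the minimum change of 1. Id2, an inhibitor of DNA binding needed for innate lymphocytes, averaged -0.04 ± 0.0677 (limma adjusted p = 0.709) but rose in neutrophils by 1.61 on the log2 scale (limma adjusted p = 1.12e-06). Kidins220 averaged -0.16 (limma adjusted p = 0.305) and Mboat2 0.15 (limma adjusted p = 0.124). On the Cmpk2 side, Gm9866, Sox11, Dcdc2c and Allc averaged 0.04, 0.03, 0.14 and 0.14, with limma adjusted p between 0.128 and 0.816.

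**Figure D5:**
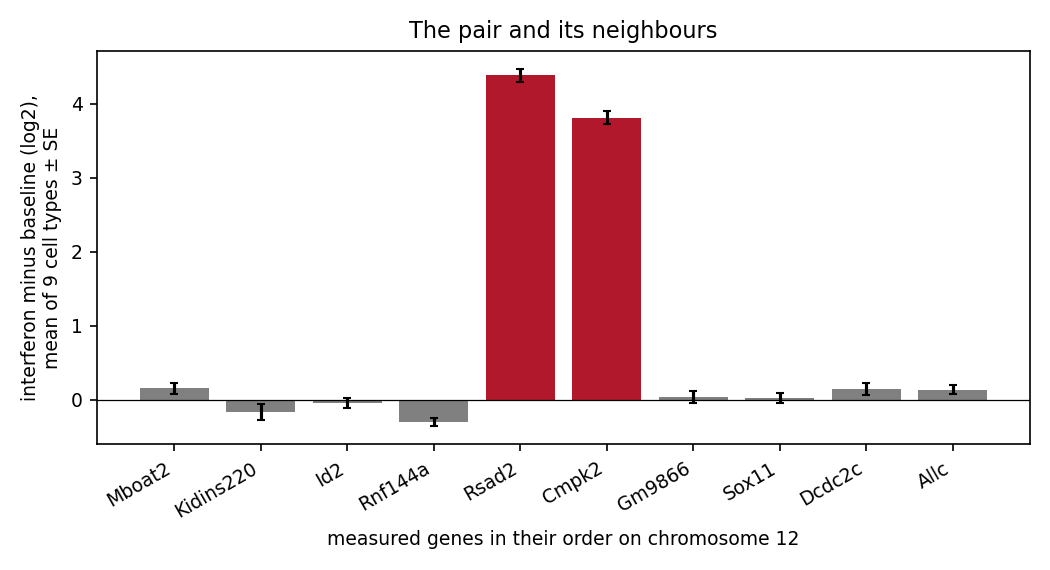
Average interferon change over 9 cell types in log2, with bars of 1 SE, for Rsad2 and Cmpk2 (red) and the 4 nearest measured genes on each side (grey), in their order on chromosome 12. The pair reaches 4.38 and 3.81 and the neighbours lie between -0.30 and 0.15.

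Part of the induction pathway of the pair, feedback inhibitors included, rose as well. Of 14 induction genes measured of 15, 5 were raised on average and 0 lowered by limma, with 9 raised and 4 lowered at an unadjusted p below 0.05. At that unadjusted p, limma gave a rise for 14.02% and a fall for 21.98% of the genes of the whole table on average, the background for this count and those of the lists below. For calls on average the background, for this list and those below, was 1.26% raised and 0.0658% lowered. The median change of this list was 0.40, against -0.01 over all genes. The receptor and kinase genes, named after their values were seen, were not called on average. They averaged -0.22 (Ifnar1), -0.18 (Ifnar2), -0.07 (Jak1) and -0.295 (Tyk2). The 4 largest rises were Usp18, an inhibitor of receptor signalling (3.75 ± 0.0893, limma adjusted p = 6.75e-27), Irf7 (2.55 ± 0.0833, limma adjusted p = 5.09e-23), Stat2 (2.46 ± 0.0829, limma adjusted p = 1.28e-22) and the feedback inhibitor Socs1 (1.54 ± 0.0707, limma adjusted p = 9.61e-19). All 4 were raised in 9 of 9 types, as the pair was. In neutrophils, where the pair rose least, the Stat2 rise was 3.31 and the Socs1 rise 2.92, and the Socs1 rise exceeded that of the other types by 1.55 ± 0.235 (limma adjusted p = 4.16e-05). Ifnar1, a receptor subunit named here after its values were seen, was lowered in neutrophils by limma (-1.34 ± 0.225, limma adjusted p = 6.24e-05). It was the 1 induction gene lowered there, beside 6 raised. Of all genes, 2.43% were raised in neutrophils, and the share lowered is not given here.

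All 21 antiviral effectors measured, of 23 listed, were raised on average by limma, with a median of 2.90. Of all genes, 1.26% were raised on average. The pair and the list were chosen with earlier results known, so nothing is read from that count or from the pair's place beside the median. The highest 4 were Ifit3 (4.32), Mx2 (4.31 ± 0.0949, limma adjusted p = 1.47e-27), Ifit1 (4.29 ± 0.139, limma adjusted p = 3.71e-23) and Mx1 (4.17 ± 0.108, limma adjusted p = 6.89e-26), close to the 4.38 of Rsad2. As with the pair, Mx1 rose less in neutrophils than in the other types, with a difference of -3.20 ± 0.358 (limma adjusted p = 2.43e-07), and so did Mx2 (-1.55 ± 0.315, limma adjusted p = 0.00206). The Mx2 difference lost its call under quantile normalization (-0.99, limma adjusted p = 0.0765) and without neutrophil interferon array 1 (-1.26, limma adjusted p = 0.0765). As with Rsad2, the Ifit3 rise was larger in macrophages than in the other types, by 2.16 ± 0.343 (limma adjusted p = 0.000436), on the same single interferon array. Effectors differed in this: in neutrophils 6 of the 21 rose less than in the other types by limma and 1 rose more. That gene, named after its values were seen, was Ifit2. It rose by 5.86 in neutrophils, against a mean of 3.60 in the other 8 types, a difference of 2.26 ± 0.311 (limma adjusted p = 9.76e-06). The share of all genes called in this contrast is not given here, so nothing is read from the 6 and the 1.

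The list of the nucleotide route around Cmpk2 had 35 pyrimidine genes measured of 36. By limma 2 were raised on average and 0 lowered, where 1.26% of all genes were raised and 0.0658% lowered. At an unadjusted p below 0.05, 5 were raised and 12 lowered (34.3% lowered, against 21.98% of all genes). The median change was -0.08. The 2 were Nt5c3, a nucleotidase that removes phosphate from pyrimidine monophosphates, the substrates of Cmpk2 (2.30 ± 0.0990, limma adjusted p = 1.65e-19), and Samhd1, which breaks down deoxynucleotide triphosphates (1.10 ± 0.0770, limma adjusted p = 1.09e-13). With a preparation term Samhd1 rose by 0.96 and fell short of the minimum change. Some genes not called on average changed in single types, and are named after their values were seen. Dck rose in dendritic cells (2.53 ± 0.306, limma adjusted p = 2.1e-07) and by 2.12 on the single macrophage interferon array. Upp1 rose in neutrophils (1.33 ± 0.197, limma adjusted p = 8.33e-06). Uck2 fell in dendritic cells (-1.27 ± 0.195, limma adjusted p = 1.77e-05). Nt5c3 was raised in 7 of 9 types, and unlike the pair it rose most in neutrophils, by 3.94, where the rise exceeded the other types by 1.85 ± 0.329 (limma adjusted p = 0.000404).

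Nt5c3 also rose more in dendritic cells than in the other types, by 1.42 ± 0.304 (limma adjusted p = 0.00511), as did Cmpk2. That call was lost without dendritic cell interferon array 2 (1.23, limma adjusted p = 0.182). In CD8+ T cells the Nt5c3 change of 0.86 was below that of the other types, with a difference of -1.62 ± 0.304 (limma adjusted p = 0.0228), a call that was lost on leaving out any 1 of the 5 CD8+ arrays, while the difference itself stayed between -1.64 and -1.60. Over the 8 types without neutrophils the difference was -1.29 against baseline array 3 alone (limma adjusted p = 1.00) and -1.41 over all baseline arrays. Cmpk1, the cytosolic kinase with the same reaction as Cmpk2, changed by -0.01 on average (limma adjusted p = 0.957) and was named for that role after its values were seen. None of the 10 other monophosphate kinases measured, of 12, was called by limma in either direction on average, with 0 raised and 1 lowered at an unadjusted p below 0.05.

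The enzyme class of viperin had 7 other radical S-adenosylmethionine enzymes measured. None was raised on average by limma, where 1.26% of all genes were, so nothing is read from that 0. At an unadjusted p below 0.05, 0 were raised and 4 lowered (57.1% lowered, against 21.98% of all genes), with a median of -0.18. In neutrophils Mocs1, named after its values were seen, was lowered (-1.11 ± 0.264, limma adjusted p = 0.00342). The share of all genes lowered there is not given here. None of the 10 cytosolic iron-sulfur assembly genes measured, of 13, was called on average by limma, with 0 raised and 7 lowered at an unadjusted p below 0.05 (70.0% lowered, against the same 21.98%). Of 13 reported partner proteins of viperin, 1 was raised on average, the nucleic acid sensor Tlr7 (2.14 ± 0.105, limma adjusted p = 6.09e-18). It was raised in 7 of 9 types. Tlr9, named after its values were seen, was raised in NKT cells (1.56 ± 0.458, limma adjusted p = 0.0290), where 2.89% of all genes were. The Tlr7 change in dendritic cells, 0.91, was smaller than in the other types, with a difference of -1.39 ± 0.322 (limma adjusted p = 0.0116), whereas Cmpk2 rose more there, and that Tlr7 call was lost against baseline array 3 alone (-0.84, limma adjusted p = 0.817, against -1.44 over the same 8 types with all baseline arrays) and without dendritic cell baseline array 1 or interferon array 1.

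An ISRE match like that of Rsad2 was found before 31 of the 71 genes raised in all 9 types that had a promoter window (43.7%), against 2.98% of all windows. Both members of the pair belong to those raised genes, and only Rsad2 carried the match.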

How the data were processed

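The deposited values are RMA intensity values per probe set on a linear scale, made by the authors with Affymetrix Power Tools per the submitters' processing notes. Neither tool version nor genome build was given in the sources used here. Intensities ran from 4.69 to 22042 with array medians of 105 to 125, and were log2-transformed here without further scaling. Precision is limited by how many arrays there are. Of 24922 probe sets, 21425 had 1 gene symbol, 1399 several and 2098 none. The brightest probe set was kept for the 921 symbols with several, which left 19752 genes. Symbols follow the platform annotation, which can be old. No detection call was used.

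One fit held all 18 groups (limma 3.58.1, R 4.3.3, lmFit then eBayes, with 25 residual degrees of freedom) and had contrasts of interferon minus baseline per cell type, their unweighted mean, and each type minus the mean of the other 8. Adjusted p-values are Benjamini-Hochberg over all genes and two-sided. A call needed an adjusted p below 0.05 and a log2 change of at least 1. The fit was tested on simulated data with known changes. Group means, ranks and correlations were computed with Python 3.11.15, numpy 2.4.6 and pandas 2.3.3, and plots with matplotlib 3.10.9.

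The members, gene lists and tests were chosen with earlier results of these data known. Named genes were the pair, up to 4 genes per list with the largest average change among those called, the 6 genes most like each member by each measure, 4 measured neighbours on each side, and the genes ranked next to each member. Genes named outside this rule are marked in the text or follow from a count. List genes without a matching probe set are not analysed here. Whether same-numbered interferon and baseline arrays deviated together was mixed (16 pairs, r from -0.301 to 0.347, 7 over 0.1). Both pairs were over 0.1 in NK cells (0.128 and 0.336), NKT cells (0.264 and 0.317) and neutrophils (0.347 for both). Neutrophils have 2 arrays per group, so their 2 values are the same comparison. No label pairs the arrays, and the numbers were not used as pairs. Alternatives were a preparation term, baseline array 3 alone, a replicate block, quantile normalization, the mean of probe sets, a filter on dim genes (log2 level of at least 7 on at least 2 arrays), moderation with a variance trend, no minimum change, other measures of likeness, and leaving out each array. Leaving neutrophils out of the other types was added after seeing the data.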

Additional observations from a re-analysis of the deposited data

Results flagged for a closer look

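The results here come from genes named from the lists around the pair, up to 4 per list, with Ifit2 added. Each had an interferon change in 1 cell type that differed from the mean change of the other 8 by limma. The limits were an adjusted p below 0.05 and at least 1 on the log2 scale. This is not a full search of the lists. In neutrophils, Ifit2 rose more by 2.26 and Socs1 by 1.55. Mx2 and Mx1 rose less there, with differences of -1.55 and -3.20, as the pair also did. Outside the named genes, the effectors Oasl2 (-2.21), Ifitm3 (-2.19), Oas3 (-1.60) and Oas2 (-1.38) passed the same limits as smaller in neutrophils. Nt5c3 rose more in neutrophils by 1.85 and in dendritic cells by 1.42, and its change was smaller in CD8+ T cells (-1.62). Ifit3 rose more in macrophages by 2.16, on 1 interferon array. The change of Tlr7 was smaller in dendritic cells (-1.39). No group had 4 arrays or more, so no single array was tested as an outlier within its group.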

How the results depend on the processing

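Of the results recomputed, 1 changed sign: the Rsad2 change minus the Cmpk2 change in neutrophils was -0.14, and 0.045 under quantile normalization. Rsad2 rose on average by 4.35 to 4.42 and Cmpk2 by 3.78 to 3.84 over the 42 fits that left out 1 array, and by 4.23 and 3.60 with a preparation term. The macrophage interferon array could not be left out, since it is the only 1. Where values moved by more than the residual SD or counts by over 1.5 times, the cause was not tested unless the setting itself fixes it. With a preparation term, Cmpk2 rose in neutrophils by 2.38 and 1 pyrimidine gene was raised. Against baseline array 3 alone, Rsad2 rose by 4.78 (CD4+), 4.16 (regulatory T cells) and 4.06 (NKT cells), and Cmpk2 by 3.44 (regulatory T cells), 3.24 (gamma-delta T cells), 3.88 (NKT cells) and 4.25 (macrophages). In the same setting, which has no neutrophil value, the excess over the other 7 types was 0.15 for Cmpk2 in NKT cells, 1.197 for Cmpk2 in dendritic cells and 1.19 for Rsad2 in macrophages, against 0.49, 0.75 and 1.33 over the same types with all baseline arrays, and Rsad2 minus Cmpk2 was 1.62 in NK and -0.64 in dendritic cells. There 252 genes were raised in NKT cells, against 571 with all baseline arrays. That count ran from 398 to 875 when 1 NKT array was left out, with 875 without baseline array 3, and the Cmpk2 rise in CD8+ T cells ran from 3.12 to 3.74.

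With no minimum change, which loosens the call, 470 genes were raised in gamma-delta T cells, 884 for NKT cells, 734 for dendritic cells, 832 for neutrophils and 1887 on average. Of the lists, 9 induction genes were then raised and 4 lowered, and 5 pyrimidine genes were raised and 11 lowered. Radical S-adenosylmethionine enzymes, iron-sulfur assembly genes and viperin partners had 4 lowered each. The share of all genes lowered in this setting is not given here, so nothing is read from these list counts. By Spearman's correlation, 0 and 3 of the 6 genes closest to Rsad2 by level and by change were shared, and 2 of those closest to Cmpk2 by level, and without macrophages 3 of those closest to Rsad2 by change. Allowing 1 mismatch gave 2 ISRE matches before Rsad2. With the replicate number as a block, Rsad2 rose in CD4+ T cells by 4.47 and Cmpk2 by 3.69, and none of the 81 results crossed a threshold or moved past these limits. The paired design has no support in the labels.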
